A study of Mus musculus with 6 samples.

Results

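Retinoic acid is made from vitamin A and acts on genes through nuclear receptors. The retinoid genes described here are 9 genes of this pathway, split into binding proteins (Crabp1, Crabp2 and Rbp4), retinaldehyde dehydrogenases (Aldh1a1 and Aldh1a2) and nuclear receptors (Rara, Rarb, Rarg and Rxra). The 9 genes were chosen with earlier results of these data known. Their probe sets were taken by name: every probe set whose platform annotation gave 1 gene symbol among these 9. That found 10 of the 12422 probe sets, covering 8 of the 9 genes, among 8251 genes with a single-symbol probe set. No probe set carried the single symbol Rarb, so Rarb was not analysed here.

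Whole embryonic kidneys (metanephros) were profiled at stage E14.5 (days after mating) on 6 one-colour Affymetrix arrays, 4 of wild type and 2 of kidneys carrying the Wnt4tm1Amc allele. Wnt4 is a secreted signal needed to form the renal vesicle, the epithelial precursor of the nephron, and the study's design text sets out to find genes of the renal vesicle and its derivatives by their loss in the mutant. A wild-type sample held 2 kidneys with the strain given as CD-1, and a mutant sample held 8 to 10 kidneys from 4 to 5 embryos with the strain given as 129, while the protocol text of all 6 speaks of CD-1 matings. Sex is given as unknown, the same for both groups. Genotype, strain label and pool size cannot be told apart. The labels do not say whether wild-type pools came from separate embryos, so the p-values measure the spread between these samples, which may in part be technical.

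In the textbook pathway, Rbp4 carries retinol in plasma, cells oxidise it to retinaldehyde, and the Aldh1a enzymes turn retinaldehyde into retinoic acid. The Crabp proteins bind retinoic acid in the cytosol, and receptors of the Rar family pair with Rxr receptors on DNA. In the developing kidney, Aldh1a2 is known as an enzyme of the stroma, and stromal retinoic acid signalling is known to sustain Ret, the receptor through which the ureteric bud branches.

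Receptor pairs are known to bind direct repeats of a short element, and the form with 5 bases between the repeats (DR5) is the classic one. The 250 bases before each annotated start were searched on both strands, in RefSeq sequences of build GRCm38.p6, which held 8 of the 9 genes, in 15 windows. Crabp2 was not among them. Each repeat had to read A or G, then G, then G or T, then TCA, so looser forms of the element were not counted. Of these 15 windows, 1 held a DR5, that of Rarb. Outside the 9 genes, Cyp26a1 and Stra6 were searched too. A DR5 was found in Cyp26a1, whose enzyme degrades retinoic acid, and in no window of Stra6, a membrane receptor for retinol uptake. A DR5 was present in 0.0883% of all 32851 windows. The DR5 windows are shown because they spell out the element that gives this gene family its known feedback, and capitals mark the DR5, which lies on the opposite strand in Cyp26a1. The element may overlap AGTTCA, which was also searched.
Rarb (chr14:16575498-16575551, minus strand): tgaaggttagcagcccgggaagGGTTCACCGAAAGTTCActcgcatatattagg
Cyp26a1 (chr19:37697754-37697807, plus strand): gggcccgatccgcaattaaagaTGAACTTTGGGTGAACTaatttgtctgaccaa

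The upstream sequences of Crabp1 and Aldh1a2 are shown because both genes rose in the mutant and each has 1 window. Neither held a DR5, a DR1 or a DR2 (repeats with 1 or 2 bases between them), nor AGGTCA or AGTTCA on either strand, which says only that these letters are not in these windows. Across all windows these were present in 0.164%, 0.174%, 14% and 11.8% for DR1, DR2, AGGTCA and AGTTCA. Capitals mark GGGCGG on either strand, the GC box, present in 32.7% of all windows. Crabp1 had 5 of them and Aldh1a2 none.
Crabp1 (chr9:54764498-54764747, plus strand): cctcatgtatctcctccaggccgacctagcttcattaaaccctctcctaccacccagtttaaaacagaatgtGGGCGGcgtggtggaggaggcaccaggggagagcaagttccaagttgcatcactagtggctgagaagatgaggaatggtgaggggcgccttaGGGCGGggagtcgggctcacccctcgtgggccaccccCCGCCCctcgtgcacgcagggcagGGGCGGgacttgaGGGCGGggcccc
Aldh1a2 (chr9:71215539-71215788, plus strand): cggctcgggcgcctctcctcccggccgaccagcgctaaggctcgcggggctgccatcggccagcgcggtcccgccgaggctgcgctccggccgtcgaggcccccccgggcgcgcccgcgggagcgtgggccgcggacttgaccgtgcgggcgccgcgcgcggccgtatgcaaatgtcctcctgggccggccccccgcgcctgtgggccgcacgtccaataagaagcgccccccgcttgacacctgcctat

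The Aldh1a2 window was 77.6% G or C with 40 CpG dinucleotides and that of Crabp1 63.6% with 12. The median over all windows was 52.4% with 6. Crabp1 and Aldh1a2, which both rose, share no searched element in these windows.

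Values are deposited array signals, and differences are mutant minus wild type on the log2(signal + 16) scale, which understates changes at low signals. A probe set was tested when 2 or more arrays had it above their 40th percentile of signals. This kept 8 of the 10 retinoid probe sets, covering 7 genes, and 7981 of 12422 in all. Each of the 8 exceeded that level on all 6 arrays, so none entered through 1 group. In the mutant, 3 of the 8 rose, 0 fell and 5 did not pass (limma, adjusted p under 0.05 over all 7981). Across all probe sets tested, 4.65% rose and 6.11% fell. At an unadjusted p under 0.05 the counts for the 8 were 4 higher and 0 lower, where 12.3% and 14.2% of all tested were higher and lower. The median difference of the 8 was 0.46, against 0.02 over all probe sets tested. Because the genes were chosen with earlier results of these data known, these comparisons are descriptions only.

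**Figure D1:**
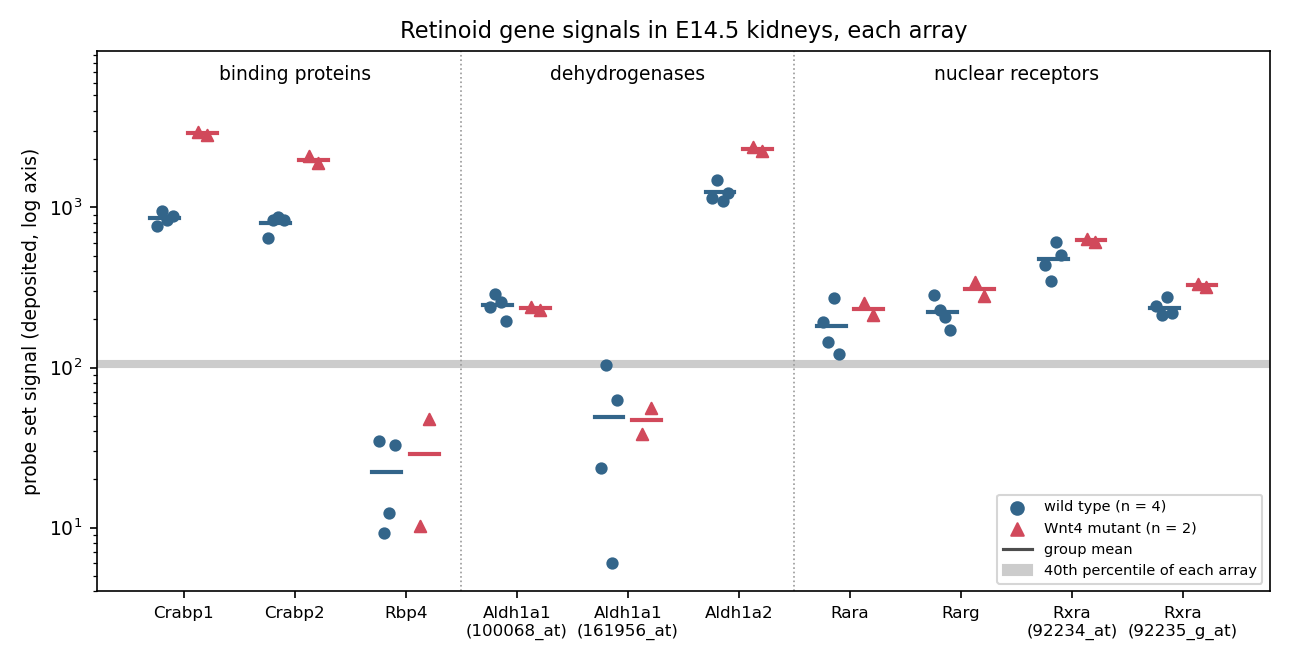
Deposited signal (vertical log axis) of all 10 retinoid probe sets on each of the 4 wild-type (circles) and 2 mutant (triangles) arrays, with group means as lines and the 40th percentile of the arrays as a grey band. For Crabp1, Crabp2 and Aldh1a2 both mutant arrays lie above all wild-type arrays, and Rbp4 lies below the band on every array.

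Among the binding proteins, both cytosolic retinoic acid binding proteins rose. In array order, replicates 1 to 4 of the wild type gave Crabp1 signals of 761, 950, 832 and 879, and mutant replicates 1 and 2 gave 2972 and 2823. The lower mutant array was far above the highest wild-type array, and the arrays of each group lay close together. The means were 855 ± 79.8 (SD, n = 4) and 2898 ± 106 (SD, n = 2), and the difference was 1.75 ± 0.11 (SE), or 3.35-fold with a 95% interval of 2.82 to 3.98 (limma, adjusted p = 4.93e-05). Ordered by p-value, Crabp1 was number 12 of the 7981 probe sets, and 0.413% of them had a larger positive difference. These are bulk RNA samples, in which more cells of a type and more RNA per cell cannot be told apart.

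Crabp2 read 643, 839, 873 and 831 in the wild type and 2088 and 1884 in the mutant. Wild-type replicate 1 was the lowest array, for Crabp1 as well, and the groups did not overlap. The means were 796 ± 104 (SD, n = 4) and 1986 ± 144 (SD, n = 2), a difference of 1.31 ± 0.14 (SE), or 2.48-fold with an interval of 2.00 to 3.07 (limma, adjusted p = 0.000576). Without wild-type replicate 1 the difference was 1.21 and still passed (limma, adjusted p = 0.000978).

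Rbp4, the plasma retinol carrier, had signals of 34.7, 9.26, 12.3 and 33.0 in the wild type and 10.2 and 47.6 in the mutant. All 6 arrays lay below their 40th percentile and the groups overlapped. Rbp4 was therefore not tested, and no difference could be read at this signal.

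Of the dehydrogenases, Aldh1a2 rose and Aldh1a1 did not pass. Aldh1a2, the main retinoic acid forming enzyme of the early embryo, read 1148, 1490, 1095 and 1224 in the wild type and 2378 and 2259 in the mutant. Wild-type replicate 2 was the highest of its group and still below both mutant arrays. The means were 1239 ± 176 (SD, n = 4) and 2319 ± 84.2 (SD, n = 2), a difference of 0.90 ± 0.13 (SE), or 1.87-fold with an interval of 1.53 to 2.29 (limma, adjusted p = 0.00252).

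Aldh1a1, a related enzyme, read 238, 286, 257 and 194 in the wild type and 240 and 230 in the mutant at its brighter probe set. Both mutant arrays lay inside the wild-type range. The difference was -0.04 ± 0.19 (SE) with an interval of -0.48 to 0.40 (limma, adjusted p = 0.925), so a rise above 1.32-fold or a fall to below 0.718 of the wild type lay outside the interval. Its other probe set exceeded the 40th percentile on 1 array only, was not tested, and ranged from 5.98 to 104 in the wild type, with 38.2 and 55.6 in the mutant.

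The 4 receptor probe sets all had positive differences, from 0.38 to 0.46, and none passed the test. Rara, the most widely expressed retinoic acid receptor, read 194, 143, 273 and 122 in the wild type and 252 and 213 in the mutant. The mutant arrays lay within the broad wild-type range, with a difference of 0.38 ± 0.30 (SE; limma, adjusted p = 0.484). It was 0.22 without wild-type replicate 4, 0.58 without wild-type replicate 3 and 0.01 without wild-type replicates 2 and 4 together. Rarg, another receptor of that family, read 283, 230, 207 and 172 in the wild type and 340 and 282 in the mutant. The lower mutant array fell just under wild-type replicate 1, and the difference was 0.46 ± 0.22 (SE; limma, adjusted p = 0.212), or 0.26 with the replicate number as a block. Wild-type replicates 3 and 4 have no mutant array of that number. The difference of the block fit therefore rests on replicates 1 and 2 of each group only.

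Rxra, the common partner of the Rar receptors, had 2 probe sets built on the same source transcript, which are not independent readouts. The brighter read 436, 348, 610 and 505 in the wild type and 637 and 609 in the mutant. Mutant replicate 2 fell just below wild-type replicate 3, and the difference was 0.41 ± 0.20 (SE; limma, adjusted p = 0.235), or 0.27 without wild-type replicate 2 and 0.26 without wild-type replicates 2 and 4 together. With the replicate block it was 0.66 and passed (limma, adjusted p = 0.0473), but that difference leaves out wild-type replicates 3 and 4, and replicate 3 was the array that overlapped the mutant. The other read 242, 212, 275 and 218 in the wild type and 334 and 320 in the mutant. Its groups did not overlap, yet the difference of 0.45 ± 0.17 (SE) did not pass (limma, adjusted p = 0.134). Of the 8 tested retinoid probe sets, 4 had groups that did not overlap, all with the mutant above, against 18.6% of all tested with the mutant above and 37.4% either way.

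The intervals show how much the receptor result leaves undecided. They reached up to 2.09-fold for Rara, 1.94-fold for Rarg, and 1.82-fold and 1.78-fold for the brighter and the other Rxra probe set. The lower bound was above no change for the other Rxra probe set only. A rise of the size of that of Crabp1 lay outside all 4 intervals.

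**Figure D2:**
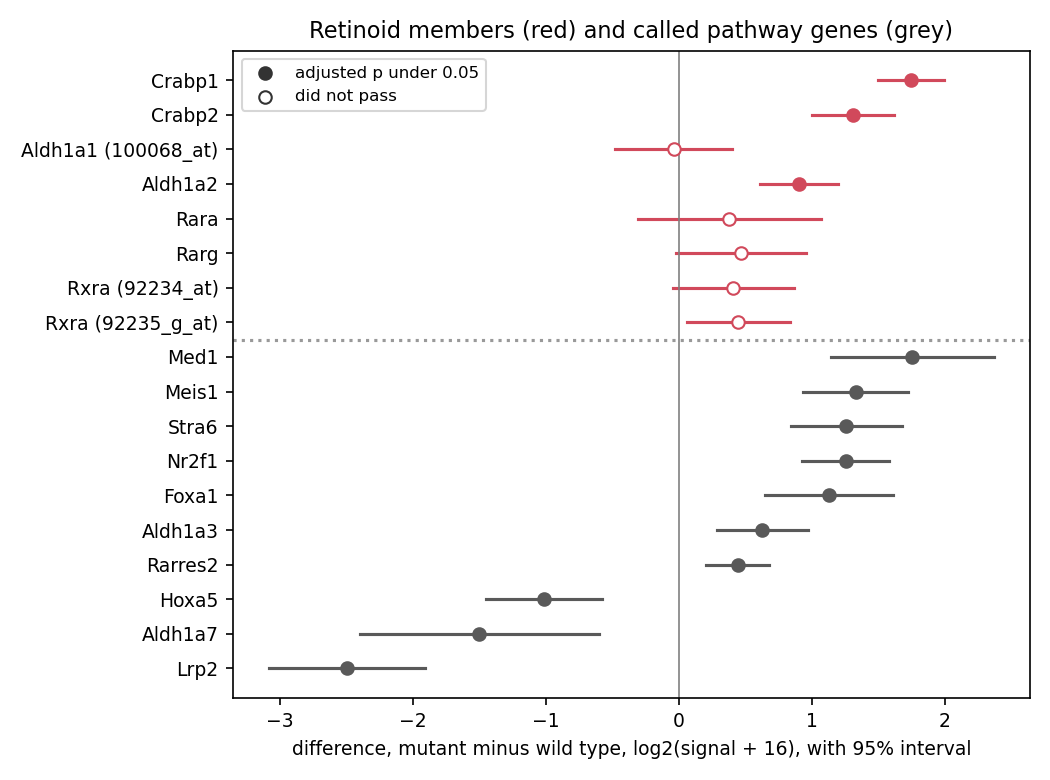
Difference, mutant minus wild type, on the log2(signal + 16) scale (horizontal axis) with its 95% interval from limma, for the 8 tested retinoid probe sets (red) and the 10 other pathway genes that passed (grey). Filled points passed at an adjusted p under 0.05; Crabp1, Crabp2 and Aldh1a2 are filled, and the receptors are open points to the right of 0.

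Ratios between pairs of genes within each array were compared to see whether related genes moved by the same amount. Each of 7 pairs was tested by an exact two-sided permutation over the 15 ways to split the arrays, with Benjamini-Hochberg adjustment over the 7. The pairs were chosen after the values were seen, so these p-values are descriptions only. The smallest p this design allows is 0.0667, so no pair could pass. The log2 ratio of Crabp1 to Crabp2 lay between -0.07 and 0.24 on the wild-type arrays and was 0.51 and 0.58 on the mutant arrays, which did not overlap (change of 0.44, exact p = 0.0667, adjusted p = 0.117). Crabp1 thus had the larger rise on these arrays, without a call. The ratio of Aldh1a2 to Aldh1a1 went from 2.27 ± 0.23 (SD, n = 4) to 3.22 ± 0.01 (SD, n = 2), again without overlap (exact p = 0.0667, adjusted p = 0.117).

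Foxd1, the transcription factor of cortical stroma, was the reference for the remaining retinoid pairs. It read 1199 to 1528 in the wild type and 4692 and 4749 in the mutant, a difference of 1.75 (limma, adjusted p = 4.93e-05). The ratio of Crabp1 to Foxd1 was -0.70 ± 0.20 (SD, n = 4) in the wild type and -0.70 ± 0.06 (SD, n = 2) in the mutant, a change of -0.01 (exact p = 0.933, adjusted p = 0.933). The mutant ratios lay inside the wild-type range of -0.92 to -0.44. The ratio of Aldh1a2 to Foxd1 was lower by 0.85 in the mutant, from -0.18 ± 0.20 (SD, n = 4) to -1.02 ± 0.06 (SD, n = 2), with no overlap (exact p = 0.0667, adjusted p = 0.117). That of Crabp2 to Foxd1 had a change of -0.44 (exact p = 0.133, adjusted p = 0.187). The p-value for Crabp1 and Foxd1 does not show that the genes changed alike.

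**Figure D3:**
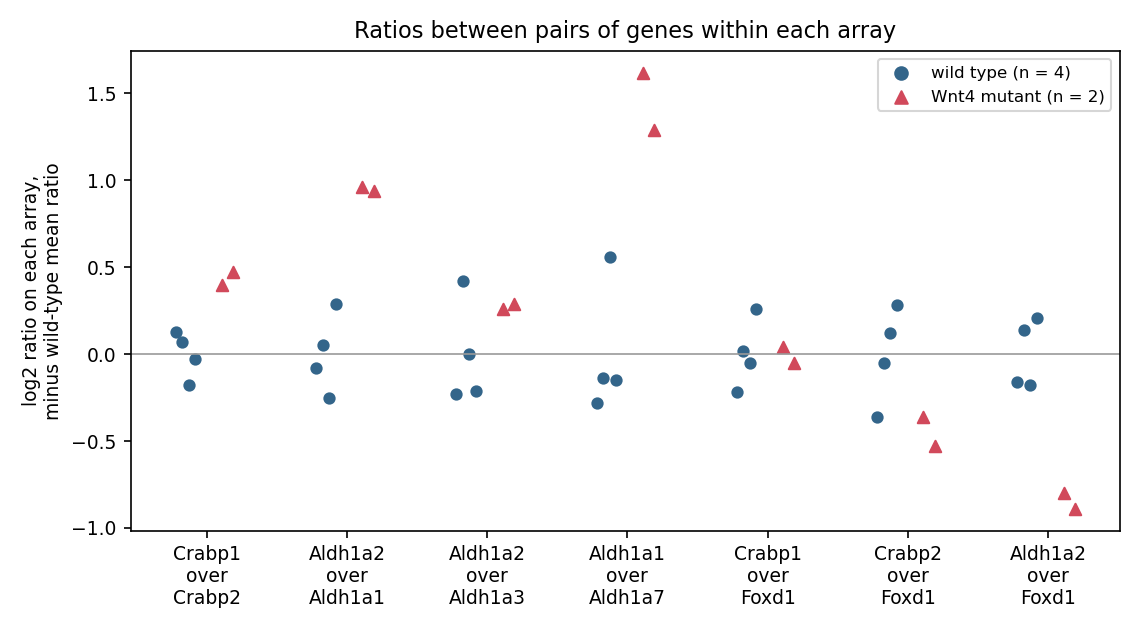
Log2 ratio between 2 genes on each array, less the mean ratio of the wild-type arrays (vertical axis), for 7 pairs, with 4 wild-type (circles) and 2 mutant (triangles) arrays. The mutant arrays lie among the wild-type ones for Crabp1 over Foxd1 and Aldh1a2 over Aldh1a3, apart from them for Crabp1 over Crabp2, both ratios with Aldh1a1, and Aldh1a2 over Foxd1, and next to the lowest of them for Crabp2 over Foxd1.

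The patterns most like those of the 3 retinoid genes that rose were found by Pearson correlation of log2 values over the 6 arrays, as a description without a test. Crabp1 was most like Polr2m (r = 0.997), Rnf10 (r = 0.996) and Mprip (r = 0.996). Crabp2 was most like Ptgr1 (r = 0.995), Rnf10 (r = 0.995) and Eya2 (r = 0.993). Aldh1a2 was most like Gata2 (r = 0.993), Btg2 (r = 0.993) and Hcn3 (r = 0.992). The 6 points of each correlation are 2 groups that lie apart, so these values mainly reflect the step between the groups.

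The rest of the pathway was described from 4 lists of 94 genes in all, of which 66 had a probe set and 44 were tested. These lists, too, were chosen with earlier results of these data known, so their counts are descriptions only. Of the 44, 7 rose, 3 fell and 34 did not pass, or 15.9% and 6.82%, against 4.65% and 6.11% of all probe sets tested. By gene, 312 of all 6082 tested rose and 386 fell. At an unadjusted p under 0.05, 9 of the 44 were higher and 7 lower (limma). Of all probe sets tested, 12.3% were higher and 14.2% lower at that level. The median difference was 0.15, against 0.01 over all 6082 genes tested. Both counts became smaller when a mutant array was left out, which leaves 1 mutant array. Calls over all probe sets, 859 with all 6 arrays, also became fewer in these fits. A call lost in such a fit is therefore not particular to these genes.

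In the transport and storage list of 15 genes, 6 were tested, of which 1 rose and 1 fell, with 1 higher and 3 lower at an unadjusted p under 0.05. Stra6, the membrane receptor that takes up retinol from Rbp4, read 255, 227, 225 and 170 in the wild type and 541 on both mutant arrays. The mutant signals were far above every wild-type array, with a difference of 1.26 ± 0.18 (SE), or 2.39-fold (limma, adjusted p = 0.00283). Lrp2 (megalin), an endocytic receptor of the proximal tubule known to take up Rbp4, fell by 2.49 (544 ± 71.3, SD, n = 4, to 88.3 ± 47.0, SD, n = 2; limma, adjusted p = 0.000550). Only 1 mutant array of Lrp2 exceeded the 40th percentile, and the size of its fall ran from -2.71 to -2.02 with an added offset of 1 or 64.

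Of 12 tested genes of retinoid metabolism, 1 rose, 1 fell and 10 did not pass (limma; at an unadjusted p under 0.05, 2 higher and 2 lower). Aldh1a3, the remaining enzyme of the Aldh1a family that forms retinoic acid, read 438, 357, 352 and 459 in the wild type and 647 and 603 in the mutant. Its groups did not overlap, and it rose by 0.63 ± 0.15 (SE; limma, adjusted p = 0.0319). The call was lost without wild-type replicate 1, 2 or 3 (0.67, 0.58 and 0.57; limma, adjusted p = 0.0503, 0.0541 and 0.0643) and without mutant replicate 1 or 2 (0.58 and 0.68; limma, adjusted p = 0.212 and 0.155). It was also lost with no variance trend and with the replicate block (limma, adjusted p = 0.0583 and 0.0581). The ratio of Aldh1a2 to Aldh1a3 changed by 0.28 with overlapping groups (exact p = 0.4, adjusted p = 0.467).

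Aldh1a7, a close relative of Aldh1a1, read 148, 161, 83.0 and 108 in the wild type and 28.1 and 37.7 in the mutant. It fell by 1.50 (limma, adjusted p = 0.0450), but passed the filter on low values through 3 wild-type arrays only, so that filter and the direction of its difference are not independent. Its call was lost when any single array was left out, with differences from -1.66 without wild-type replicate 3 to -1.36 without mutant replicate 1 (limma, adjusted p = 0.0535 to 0.213). It was also lost with no filter on low values (limma, adjusted p = 0.0525) and with the replicate block (limma, adjusted p = 0.0703). The ratio of Aldh1a1 to Aldh1a7 changed by 1.46 with no overlap (exact p = 0.0667, adjusted p = 0.117). Because the genes are alike in sequence, their probe sets may share transcripts and the split between them is uncertain.

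Adh1, an alcohol dehydrogenase that can oxidise retinol, was 314 ± 37.5 (SD, n = 4) and 213 ± 30.4 (SD, n = 2), a difference of -0.52 that did not pass (limma, adjusted p = 0.0992). Dhrs3, which reduces retinaldehyde back to retinol, had -0.12 (limma, adjusted p = 0.751). Cyp26a1 lay below the 40th percentile on all 6 arrays (48.4 ± 24.6, SD, n = 4, and 49.5 ± 8.03, SD, n = 2) and was not tested. Cyp26b1 had no probe set with that single symbol and was not analysed here.

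Among partner receptors and coregulators, 13 genes were tested, of which 2 rose, 0 fell and 11 did not pass (limma; at an unadjusted p under 0.05, 2 higher and 0 lower). Nr2f1, an orphan nuclear receptor known to respond to retinoic acid, read 918, 929, 1040 and 782 in the wild type and 1921 and 2511 in the mutant, a difference of 1.25 ± 0.14 (SE; limma, adjusted p = 0.000870). Its relative Nr2f2 had 0.21 at its brighter probe set (limma, adjusted p = 0.561), with overlapping groups. Med1, a Mediator subunit that binds nuclear receptors, read 147, 172, 296 and 270 in the wild type and 699 and 815 in the mutant, a difference of 1.75 ± 0.27 (SE; limma, adjusted p = 0.00396). Without mutant replicate 2 it was 1.65 and did not pass (limma, adjusted p = 0.0596). Rxrb had 0.27 (limma, adjusted p = 0.306), and Rxrg lay below the 40th percentile on all arrays.

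Genes known to respond to retinoic acid moved in both directions. Of 30 listed, 13 were tested, of which 3 rose, 1 fell and 9 did not pass (limma; at an unadjusted p under 0.05, 4 higher and 2 lower). Meis1, a homeobox partner of Hox proteins, read 211 to 268 in the wild type and 699 and 526 in the mutant, a difference of 1.33 (limma, adjusted p = 0.00159). Foxa1, a forkhead factor, rose by 1.13 (181 ± 35.1, SD, n = 4, to 410 ± 16.8, SD, n = 2; limma, adjusted p = 0.0110). Its call was lost without mutant replicate 1 (1.17, adjusted p = 0.0875, limma) or 2 (1.09, adjusted p = 0.117, limma).

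Rarres2, which encodes the chemokine-like protein chemerin, rose by 0.44 (limma, adjusted p = 0.0315), which did not pass without wild-type replicate 1 or 3 (0.43 and 0.45; limma, adjusted p = 0.0702 and 0.0595) or without mutant replicate 1 or 2 (0.45 and 0.43; limma, adjusted p = 0.179 and 0.205). It also did not pass with no variance trend or with the replicate block (limma, adjusted p = 0.0529 and 0.120). Hoxa5 fell by 1.01, from 359 ± 52.6 (SD, n = 4) to 169 ± 30.5 (SD, n = 2), which passed (limma, adjusted p = 0.0112) except without mutant replicate 2 (-0.85; limma, adjusted p = 0.117). Tgm2, a transglutaminase often used as a retinoic acid readout, had -0.42 with overlapping groups (limma, adjusted p = 0.492). Ret read 86.3, 30.5, 104 and 71.3 in the wild type and 8.08 and 8.61 in the mutant, but exceeded the 40th percentile on 1 array only and was not tested.

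**Figure D4:**
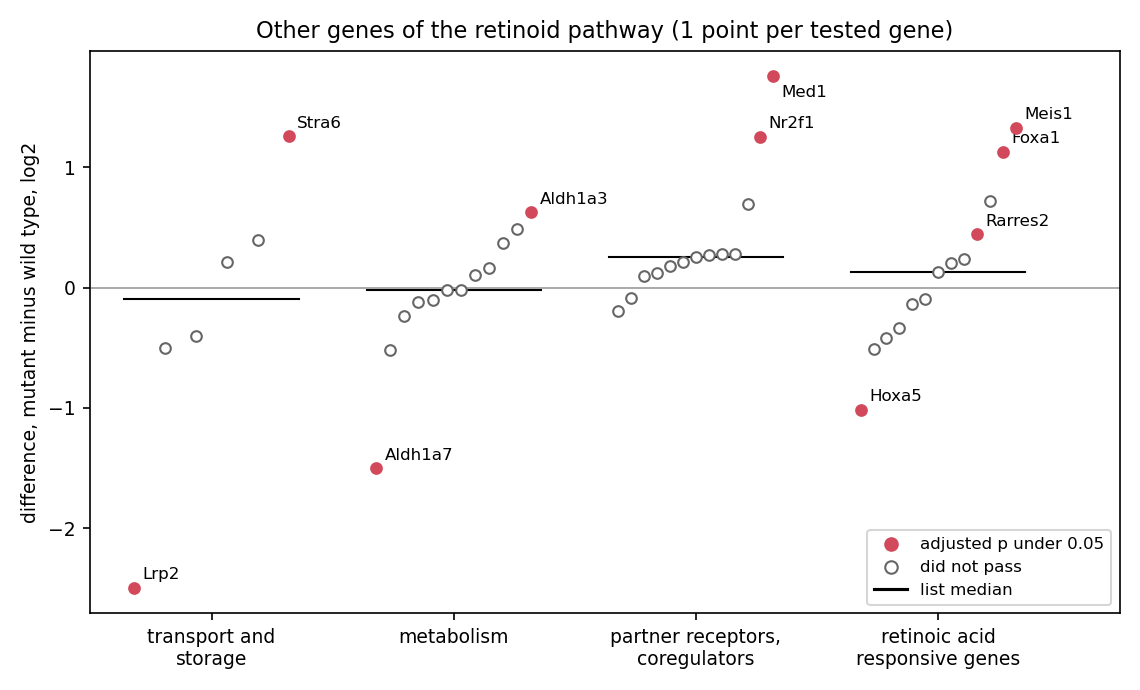
Difference, mutant minus wild type, on the log2(signal + 16) scale (vertical axis) for each of the tested genes in 4 lists of the retinoid pathway, with the list median as a line. Filled points passed at an adjusted p under 0.05; 7 genes lie above 0 and 3 below.

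Marker lists of other cell types also differed between the groups, and their part in the rises of Crabp1, Crabp2 and Aldh1a2 was not tested. The lowest signal of any probe set was 0.21, so a marker signal above 0 does not show that a cell type was present. Summed signals of 13 cortical stroma genes lay between 30232 and 33623 in the wild type and at 49621 and 49818 in the mutant, with 6 of 12 tested genes higher (limma; 9 higher at an unadjusted p under 0.05, and 0 lower at either). Foxd1, Pdgfra (1.06) and Ntn1 (1.75) were among those that rose. Meis1 is in this list as well as in that of retinoic acid responsive genes. Skeletal muscle sums of 16 genes were 2052 to 2756 and 6725 to 7084 (7 of 12 higher), with rises of 2.76 for Tnnc1, 2.05 for Actc1 and 2.17 for Myl1. Tnnc1 passed the filter through the mutant arrays only. Myf5 and Tnnt3 of the muscle list, and Fgf7 of the stroma list, were below the 40th percentile on all arrays. Erythroid sums of 7 genes were 22967 to 31256 and 38560 to 39630 (3 of 7 higher). At an unadjusted p under 0.05, 3 of them were higher and 1 lower (limma), and their median difference was 0.31. The 3 that rose were the embryonic globins Hbb-y, Hbb-bh1 and Hba-x, by 1.66, 2.18 and 1.78. Hbb-bh1 passed the filter through the mutant arrays only, and the globins and Actc1 belong to families of like sequence that their probe sets may not separate.

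Neural and glial sums of 10 genes were 3091 to 3555 and 3843 to 4483 with 0 of 6 passing (limma; 3 higher at an unadjusted p under 0.05). In this list Phox2a, Nefm and Nefl were below the 40th percentile on all arrays, and Th, the enzyme that marks catecholamine cells, had -0.35 (limma, adjusted p = 0.770). Sums of 10 adrenal and gonadal genes were 2060 to 2343 and 2435 to 2744 with 0 of 5 passing (2 higher unadjusted). The steroid enzymes and carriers Star, Cyp11a1, Cyp17a1 and Hsd3b1, with Amh, were below the 40th percentile on all arrays, and Nr5a1 had 0.31 (limma, adjusted p = 0.128). Macrophage sums of 10 genes were 1399 to 1790 and 2201 to 2444 (1 of 7 higher). Csf1r and Cd68 had 0.07 and 0.76 (limma, adjusted p = 0.823 and 0.161), and Adgre1 was not tested. Ureteric bud sums of 11 genes were 11987 to 12800 and 12976 to 13051 (4 of 10 higher, 2 lower). At an unadjusted p under 0.05, 5 were higher and 3 lower (limma). The bud tip ligand Wnt11 had -0.05 (limma, adjusted p = 0.937). Ret, also in this list, was not tested at its low signals, and both mutant arrays (8.08 and 8.61) lay below the wild type (30.5 to 104).

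Mesothelial sums of 6 genes overlapped between the groups (1597 to 1914 and 1564 to 1859; limma, 0 of 3 passing and, unadjusted, 1 higher and 1 lower). Hepatocyte sums of 9 genes overlapped too (345 to 483 and 347 to 359), but the 1 gene of that list that was tested, Afp, fell by 1.17 (wild type 142 to 195, mutant arrays 61.6 and 68.0; limma, adjusted p = 0.0258). Afp passed the filter on low values through the wild-type arrays only. Alb and Apoa1 were below the 40th percentile on all arrays. Proximal tubule sums of 11 genes were 3106 to 4063 in the wild type and 332 to 457 in the mutant (8 of 10 lower). Beside Lrp2, Pdzk1 fell by 4.70 and Slc34a1 fell by 3.26. Pdzk1 and Slc34a1 passed the filter through the wild-type arrays only. Endothelial sums of 10 genes were 6912 to 7141 and 5013 to 5268 (4 of 10 lower), while Pecam1, Cdh5 and Kdr had -1.11, -0.10 and 0.12 (limma, adjusted p = 0.0976, 0.615 and 0.711).

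The arrays were alike in scale. Median signals were 173 to 191, and kidney markers were present. Their sums over 9 genes were 8818 to 10098 in the wild type and 12879 to 13293 in the mutant (1 of 8 tested genes higher, which was Foxd1), and over the 8 without Foxd1 they were 7618 to 8693 and 8130 to 8600, which overlapped. At an unadjusted p under 0.05, 4 of the 8 tested kidney markers were higher, Foxd1 among them, and 2 lower (limma). Their median difference was 0.25. The 2 lower were Pax2 and Wt1, with -1.05 and -0.48, which did not pass (limma, adjusted p = 0.0961 and 0.0823). Both mutant arrays of Pax2 (115 and 78.7) lay at or below the lowest wild-type array (115), and those of Wt1 (817 and 753) lay below it (852). Six2, the nephron progenitor factor, read 2584 to 2925 in the wild type and 2457 and 2643 in the mutant. Wnt4 itself fell by 3.59 (803 ± 110, SD, n = 4, to 54.4 ± 28.0, SD, n = 2; limma, adjusted p = 6.11e-05), with both mutant arrays below all wild-type arrays. Its probe set passed the filter through the wild-type arrays only. The sources used here do not place that probe set against the changed region of the allele.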

How the data were processed

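RNA from 6 pools of embryonic kidneys was amplified in 1 round and hybridised to Affymetrix MG_U74Av2 arrays, per the labels' protocols. The deposited values are linear probe set intensity signals made by the authors with GCOS, per the submitters' processing notes; the sources used here give neither its version nor its settings. Each array's mean without the lowest and highest 2% of values was 500.27 to 500.29, so the arrays were already scaled. At most 0.0403% of values were shared by 2 arrays, and precision is limited by how few arrays there were. The 66 control probe sets were set aside. Of 12422 others, 10833 had 1 gene symbol, 396 several and 1193 none here, and 10817 names were updated through RefSeq (GRCm38.p6).

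Values were analysed as log2(signal + 16) with limma 3.58.1 under R 4.3.3 (lmFit, eBayes with a variance trend, no covariate), with Benjamini-Hochberg adjustment over all 7981 probe sets above the 40th percentile on at least 2 arrays. Limma was tested on simulated data. A gene in a list was represented by its brightest kept probe set. The pathway and marker lists came from general knowledge of the genes, the members and lists were chosen with earlier results of these data known, and the ratio pairs were chosen after the values were seen. Named genes were all retinoid probe sets, every pathway gene past the threshold, 12 fixed pathway genes, Wnt4, Foxd1, the 3 genes most like each retinoid gene that passed and the first 3 markers, where measured, of lists whose summed signal moved with the groups. A few markers outside this rule were named after their values were seen. Alternatives were offsets of 1 and 64, no filter and a 60th percentile filter, quantile normalization, no variance trend, array weights, the replicate number as a block, averaging the probe sets of a gene, and leaving out each array or wild-type replicates 2 and 4 together. Differences of the block fit rest on replicates 1 and 2 of each group only, since wild-type replicates 3 and 4 have no mutant of that number.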

Additional observations from a re-analysis of the deposited data

Results flagged for a closer look

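Of 20 probe sets examined for a sample far from the others among the 4 wild-type arrays, 1 stood out, where chance alone flags about 1 in 20 groups. For Crabp2, wild-type replicate 1 (643) lay apart below the other wild-type arrays (831 to 873), with a gap of 0.836 of the group's range on the log2 scale, beyond Dixon's 95% critical value. Both mutant arrays lay above all 4, and the rise passed without that array (1.21; limma, adjusted p = 0.000978).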

How the results depend on the processing

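Crabp1, Crabp2, Aldh1a2 and Stra6 kept their direction and passed in all 15 alternatives run for each (limma, differences of 1.69 to 1.84, 1.21 to 1.41, 0.82 to 1.04 and 1.11 to 1.33), and Rara and Rarg passed in none of the 14 that tested them. The median difference of the retinoid probe sets rose to 0.90 under the 60th percentile filter, which kept 5 of them. Leaving out single wild-type arrays gave 5 to 9 higher and 2 to 3 lower pathway genes. Fewer were higher when a mutant array was left out, which leaves 1. Without wild-type replicate 2, Aldh1a1 had 0.04 in place of -0.04 (-0.14 to 0.04 over the single arrays left out), and the cause was not tested. Same-numbered arrays did not deviate together (correlations of 0.003 and -0.015). The deviations of 2 mutant arrays mirror each other, so these values cannot exclude that the numbers pair the samples. With the replicate block, 4 retinoid probe sets rose, the added one being the brighter Rxra probe set (0.66; limma, adjusted p = 0.0473; 0.0473 to 0.571 over its 15 alternatives), and 5 pathway genes rose and 2 fell. Differences in that fit rest on replicates 1 and 2 of each group only. With no filter, Rbp4 and the other Aldh1a1 probe set had 0.16 and 0.22 (limma, adjusted p = 0.901 and 0.903), at signals too low to read a difference. Over all probe sets, there were 859 calls in the main fit. With both mutant arrays kept, calls ran from 575 without wild-type replicate 1 to 1351 with array weights. They were fewest when a mutant array was left out.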
